A study of Mus musculus with 8 samples.

Results

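The nuclear factor kappaB (NF-κB) pathway and its feedback genes were followed in the colon of mdr1a-/- mice through a list of 39 genes, taken by gene symbol from the probe annotation of the array. Features were found for 33 of the 39, and all 33 could be tested. The other 6 genes (Nfkb1, Chuk, Traf3, Ripk1, Ripk2 and Irak4) had no feature under their symbol and were not analysed here. The list was divided by textbook role into 15 induced feedback genes, which NF-κB itself switches on, of which 14 were measured, and 24 signalling parts, of which 19 were measured.

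The series compared 4 male mdr1a-/- mice on the AIN-76A control diet, of the Swiss strain, with 4 male mdr1a-/- mice on AIN-76A with 0.2% curcumin, the yellow polyphenol of turmeric, whose own strain the labels do not give. All 8 mice lacked the drug efflux transporter encoded by mdr1a, a model of inflammatory bowel disease, and no array of a wild-type or rutin-fed mouse was analysed here. The age on the labels is 7 weeks, and the mice were monitored until 24 weeks. The control mice on the arrays had high injury scores in histology and the curcumin mice low ones, so the diet and the score cannot be told apart. Each mouse had 1 two-colour Agilent array, with its colon RNA in Cy3 and a reference RNA in Cy5, and the values are log2 ratios of the channels. The reference is described both as a single RNA and as colon of wild-type Swiss mice on the matching diet, and a difference between 2 references would enter every change below.

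The labels do not state which channel is on top of the ratio, and limma's usual ratio would put Cy5, the reference, on top. The reading of sample over reference was taken as likely. Under it the array medians of 8 liver genes lay between -3.05 and -2.51 and those of 7 kidney genes between -2.39 and -1.39, that is, below the reference on all 8 arrays. Under it the neutrophil gene S100a8 was also higher in the high-injury control mice (2.88 ± 0.76, SD, n = 4) than in the low-injury curcumin mice (-0.19 ± 0.90). All signs given here would turn if the reference were on top. Liver genes so far below 0 also go against a reference made of colon alone. A ratio gives no level of its own, so neither the tissue nor the abundance of one gene against another could be read from these arrays. Between 11.4% and 23.8% of features had no value on an array. Pairs of control arrays correlated at 0.793 to 0.919, pairs of curcumin arrays at 0.869 to 0.914, and mixed pairs at 0.740 to 0.831.

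NF-κB is a family of dimeric transcription factors held in the cytoplasm by inhibitors of the IκB family. Tumour necrosis factor (TNF), interleukin 1, Toll-like receptors and NOD receptors activate an IκB kinase complex through adaptors and ubiquitin chains, IκB is degraded, and the dimers enter the nucleus. Among the first genes they switch on are their own brakes, the IκB genes and the ubiquitin-editing enzyme gene Tnfaip3, so the transcripts of these feedback genes are widely used as a sign of pathway activity. In the gut the pathway acts both in epithelium, where it helps to keep the barrier, and in immune cells of the lamina propria, where it drives inflammatory cytokines.

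Promoter sequence is shown for the induced genes because a κB site near the start of transcription is what sets them apart in textbooks. RefSeq windows of GRCm38.p6, from 250 bases before to 50 after each annotated start, were found for 33 of the 39 members. They were searched for GGRRNNYYCC (R is A or G, Y is C or T, N is any base), a symmetric form of the κB consensus. This motif of 10 bases reads the same on both strands, and other forms of the consensus were not searched. The motif was found in 8 of 12 induced genes with a window (66.7%) and in 6 of 21 signalling genes (28.6%). Over all 27025 genes with a window it was found in 12.6%, and in 11.2% of all 32851 windows. Matches can overlap by all but 1 base, and a match is a description of the letters, not a measured binding site. The 120 bases before the start are printed 5′ to 3′ on the strand of the gene, for the 7 induced genes whose match lies there. Capitals mark the κB matches that lie wholly within the printed bases.
Nfkbia: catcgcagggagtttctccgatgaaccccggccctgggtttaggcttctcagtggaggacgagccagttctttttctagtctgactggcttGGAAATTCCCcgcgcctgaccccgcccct
Tnfaip2: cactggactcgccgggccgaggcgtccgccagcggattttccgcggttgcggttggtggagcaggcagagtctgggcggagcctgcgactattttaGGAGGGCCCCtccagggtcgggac
Nfkbie: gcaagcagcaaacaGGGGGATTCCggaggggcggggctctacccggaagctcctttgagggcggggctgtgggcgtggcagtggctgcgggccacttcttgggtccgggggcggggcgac
Tnfaip3: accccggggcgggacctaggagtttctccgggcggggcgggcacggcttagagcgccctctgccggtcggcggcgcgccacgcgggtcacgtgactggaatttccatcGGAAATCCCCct
Nfkb2: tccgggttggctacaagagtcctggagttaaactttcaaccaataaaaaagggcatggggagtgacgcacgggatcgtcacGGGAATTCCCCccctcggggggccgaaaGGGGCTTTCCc
Rel: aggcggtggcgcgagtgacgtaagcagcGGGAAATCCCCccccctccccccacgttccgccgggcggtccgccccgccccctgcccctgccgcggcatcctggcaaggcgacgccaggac
Tnip1: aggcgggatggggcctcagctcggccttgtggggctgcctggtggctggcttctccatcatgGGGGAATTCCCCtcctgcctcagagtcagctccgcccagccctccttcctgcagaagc

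These stretches are chr12:55492648-55492767 for Nfkbia, chr12:111442541-111442660 for Tnfaip2, chr17:45555580-45555699 for Nfkbie, chr10:19015411-19015530 for Tnfaip3, chr19:46304617-46304736 for Nfkb2, chr11:23770970-23771089 for Rel and chr11:54962941-54963060 for Tnip1. Tnfaip2, Nfkbie and Nfkb2 lie on the plus strand, and Nfkbia, Tnfaip3, Rel and Tnip1 on the minus strand. The first capital stands 29 bases before the start in Nfkbia, 24 in Tnfaip2, 106 in Nfkbie and 12 in Tnfaip3. Tnfaip3 has a further match with its first base at -125 from the start. Only its end falls within the printed bases, and it is not in capitals. In Bcl3 the 1 match lies after the start, and Birc3, Traf1, Irak3 and Cflar had none in their windows. Whether the changes differ with the motif was not tested. Tnfaip2 and Nfkbia, the 2 induced genes that passed the threshold between the diets, both hold a match. The 8 with a match had log2 changes from -1.29 to -0.01 (median -0.40) and the 4 without one from -0.60 to -0.19 (median -0.25). The 2 measured induced genes that had no window, Nfkbiz and Relb, had changes of -0.07 and 0.04. In the signalling genes the medians stood in the other order, with overlapping ranges. The 4 tested with a match had changes from -0.17 to 0.25 (median 0.08). The 13 tested without one had changes from -0.59 to 0.06 (median -0.16). The 2 tested signalling genes that had no window, Ikbkb and Tradd, had changes of -0.32 and 0.47.

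The comparison of the diets asked which parts of the pathway differ in colitis-prone colon when curcumin is eaten. Of the 33 measured members 3 passed the threshold in limma (adjusted p under 0.05 over all 24030 measurements). Nfkbia and Tnfaip2, both induced by NF-κB, fell with curcumin, and Tradd, an adaptor of the TNF receptor, rose. That is 9.09% of the members, while 4.73% of all measurements were called. By direction, 2 of 33 members fell (6.06%, against 2.63% of all measurements) and 1 of 33 rose (3.03%, against 2.10%). Among all measurements 504 were higher and 633 lower, and after quantile normalization 619 and 489, with the same 3 members called. The 2 groups of values did not overlap in 7 members (21.2%, against 12.6% of all measurements), 6 of them lower with curcumin (7.21% of all measurements) and 1 higher (5.38%). A log2 change below 0 was seen in 27 of 33 members, 81.8%, and in 56.2% of all measurements. The members' median change was -0.19, and that of all measurements -0.02. The arrays number 4 a group, which limits the precision, and the median standard error (SE) of a change was 0.11.

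**Figure D1:**
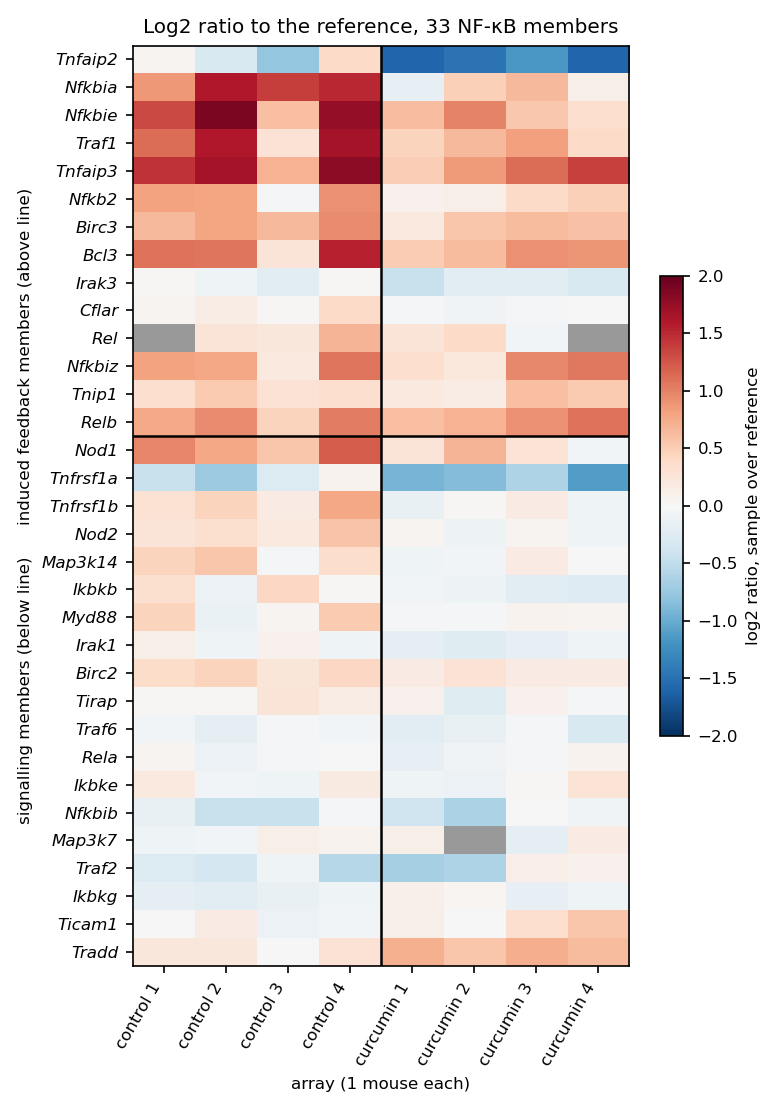
Log2 ratio of sample over reference (colour, from -2 to 2) for the 33 measured NF-κB members (rows, induced feedback genes above the horizontal line and signalling parts below it) on the 8 arrays (columns, control left of the vertical line). Grey cells have no value. Control arrays 1, 2 and 4 are red in most induced genes, control array 3 is paler, and most signalling rows are pale on all 8 arrays.

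The IκB inhibitors came first in size among the feedback genes with Tnfaip2. Nfkbia encodes IκBα, the inhibitor that is degraded and rebuilt with each round of activation. Its log2 ratios were 0.87, 1.60, 1.39 and 1.5 on control arrays 1 to 4 and -0.17, 0.47, 0.65 and 0.12 on curcumin arrays 1 to 4. Every control mouse was above every curcumin mouse. Nfkbia was 2.10-fold lower with curcumin (log2 change -1.07, SE 0.21, limma adjusted p = 0.0223), from 1.34 ± 0.33 to 0.27 ± 0.37 (SD, n = 4). The call was lost without control array 4 (adjusted p = 0.0703), curcumin array 1 (0.0541) or curcumin array 4 (0.0714), with changes of -1.02, -0.93 and -1.02. Nfkbie encodes IκBε, a later and slower inhibitor. It had 1.32, 1.88, 0.60 and 1.75 in control and 0.62, 0.99, 0.54 and 0.33 in curcumin mice. Control array 3 stood among the curcumin values, and the change of -0.77 (SE 0.27, 95% interval -1.37 to -0.17) did not pass (adjusted p = 0.151). Without control array 3, which was singled out after its values were seen, it passed at -1.03 (SE 0.18, adjusted p = 0.0161). Without control array 2 it was -0.61 (adjusted p = 0.262).

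The remaining IκB family members did not pass and lay closer to 0. Nfkbib encodes IκBβ, a constitutive inhibitor counted among the signalling parts, with a log2 change of 0.00 (95% interval -0.36 to 0.35). Bcl3 and Nfkbiz encode atypical nuclear IκB proteins that act with NF-κB on DNA. Bcl3 had 1.08, 1.07, 0.26 and 1.55 in control mice and 0.50, 0.63, 0.92 and 0.88 in curcumin mice, a change of -0.26 (95% interval -0.80 to 0.28, adjusted p = 0.635), which went to -0.50 without control array 3 and to -0.07 without control array 4. Nfkbiz had 0.81, 0.77, 0.19 and 1.07 in control mice and 0.34, 0.21, 0.96 and 1.05 in curcumin mice. Its groups covered almost the same range, with a change of -0.07 (95% interval -0.60 to 0.46), and its 2 probes differed in sign, at -0.43 and 0.28.

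Tnfaip3 encodes A20, which removes and edits ubiquitin chains on pathway adaptors, and Tnip1 encodes a ubiquitin-binding partner of A20. The log2 ratios of Tnfaip3 were 1.45, 1.66, 0.69 and 1.79 on the control arrays and 0.49, 0.85, 1.12 and 1.36 on the curcumin arrays. It was above the reference on all 8 arrays, and the groups overlapped only through control array 3. The change of -0.44 (SE 0.26, 95% interval -1.02 to 0.14) did not pass (adjusted p = 0.424). Tnip1 had 0.34, 0.52, 0.29 and 0.34 in control and 0.20, 0.15, 0.60 and 0.53 in curcumin mice, with a change of -0.01 (95% interval -0.27 to 0.26). The difference between the changes of Nfkbia and of these brakes was not tested.

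Tnfaip2, a TNF-induced gene whose protein helps cells to form membrane nanotubes, had the largest change of all members. On the control arrays its log2 ratios were 0.05, -0.30, -0.77 and 0.38, and on the curcumin arrays -1.59, -1.48, -1.16 and -1.59. The groups did not overlap, and all 4 curcumin mice lay below the reference. Tnfaip2 was 2.45-fold lower with curcumin (log2 change -1.29, SE 0.22, adjusted p = 0.0147), from -0.16 ± 0.49 to -1.45 ± 0.20 (SD, n = 4). The call was lost without curcumin array 4 (-1.25, adjusted p = 0.0515).

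Traf1, an adaptor of the TNF receptor family that NF-κB strongly induces, had 1.12, 1.60, 0.29 and 1.67 in control mice and 0.45, 0.65, 0.82 and 0.39 in curcumin mice. As in Nfkbie, only control array 3 stood among or below the curcumin values. The change of -0.60 (SE 0.28, adjusted p = 0.296) did not pass with all arrays and passed without control array 3 (-0.89, SE 0.16, adjusted p = 0.0171). Without control array 4 it was -0.43 (adjusted p = 0.519). Birc3 encodes cIAP2, a ubiquitin ligase of the TNF receptor complex, and Cflar encodes cFLIP, a blocker of caspase-8. Birc3 had 0.65, 0.79, 0.65 and 0.95 in control mice and 0.20, 0.55, 0.64 and 0.58 in curcumin mice. Cflar had 0.06, 0.15, 0.03 and 0.39 in control mice and -0.02, -0.07, -0.02 and -0.01 in curcumin mice. In both the groups did not overlap, by narrow gaps, and neither passed (Birc3 -0.27, SE 0.12, adjusted p = 0.256, and Cflar -0.19, SE 0.09, adjusted p = 0.318). The 7 probes of Cflar all had changes below 0, from -0.34 to -0.03. Irak3 encodes IRAK-M, an inhibitor of Toll-like receptor signalling, and had a change of -0.23 (SE 0.09, adjusted p = 0.194).

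None of the 4 measured NF-κB subunits passed in limma, and none had an unadjusted p under 0.05. Rela, the main activating subunit of the canonical dimer, sat near the reference in both groups, with array values from -0.12 to 0.06 in control mice and from -0.17 to 0.07 in curcumin mice. Its change was -0.03 (95% interval -0.20 to 0.15), and its 2 probes gave 0.15 and -0.15. The value near 0 rests on both probes: the first has 6 values, and with only probes measured on all arrays the change was -0.15 (adjusted p = 0.481). With 1 array left out it ran from -0.21 (without curcumin array 4) to -0.02, and it was -0.28 (adjusted p = 0.328) within the slide range that both diets share. Nfkb2 and Relb form the dimer of the non-canonical branch and are both induced by canonical NF-κB. Nfkb2 had 0.81, 0.79, -0.04 and 0.91 in control mice and 0.08, 0.12, 0.38 and 0.48 in curcumin mice. Its change of -0.35 (SE 0.20, adjusted p = 0.413) became -0.57 (SE 0.11, adjusted p = 0.0253) without control array 3. Without control array 4 it became -0.26 (adjusted p = 0.63). Relb had 0.76, 0.94, 0.44 and 1.02 in control and 0.60, 0.70, 0.92 and 1.08 in curcumin mice, with a change of 0.04 (95% interval -0.30 to 0.37). Both groups of Relb lay above the reference by much the same amount. Rel, the subunit c-Rel of lymphoid and myeloid cells, had values on 3 arrays a group, 0.26, 0.22 and 0.68 on control arrays 2 to 4 and 0.26, 0.39 and -0.06 on curcumin arrays 1 to 3, with a change of -0.19 (95% interval -0.59 to 0.21).

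**Figure D2:**
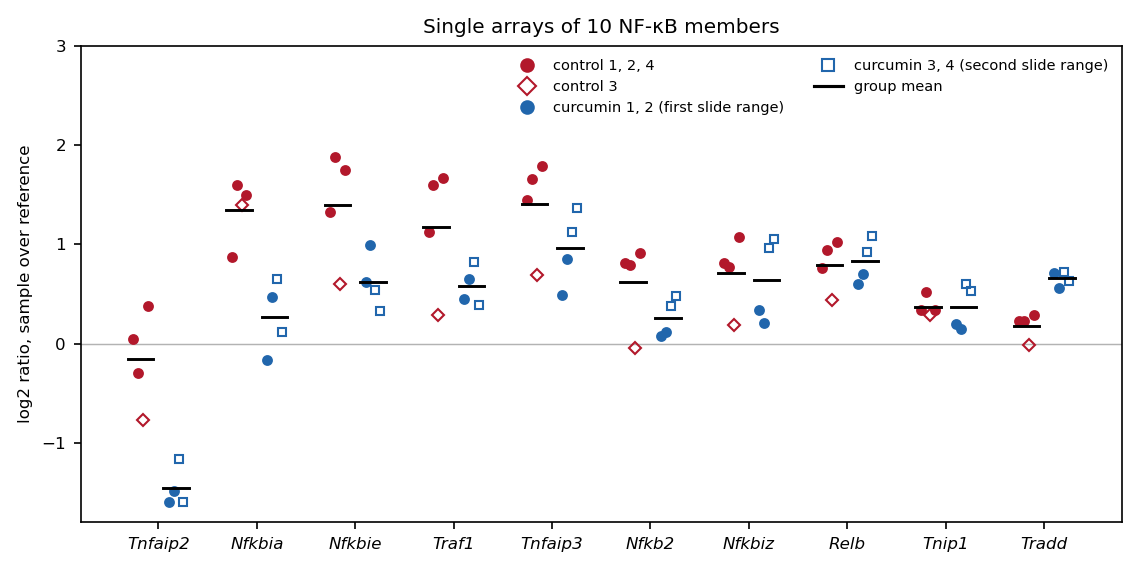
Log2 ratio of sample over reference (y axis) on single arrays for 10 NF-κB members (x axis), control mice in red and curcumin mice in blue. Open diamonds mark control array 3, open squares curcumin arrays 3 and 4, and black lines the group means. The open diamond is the lowest control value in 9 of the 10 genes, all but Nfkbia, and the open squares lie above the filled blue circles in Tnfaip3, Nfkb2, Nfkbiz, Relb and Tnip1.

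Single arrays differed within each group. Over the 13 induced genes with a value on every array, the mean log2 ratio was 0.72, 0.88, 0.29 and 1.03 on control arrays 1 to 4 and 0.10, 0.27, 0.47 and 0.38 on curcumin arrays 1 to 4. Control array 3 had the lowest control value in 11 of the 13 (84.6%), which was so in 26.0% of all measurements. On that array the pan-leukocyte, T cell and B cell lists described below also had their lowest control mean, while the neutrophil list had its highest. Without control array 3, 7 members passed, 6 lower (Tnfaip2, Nfkbia, Nfkbie, Traf1, Nfkb2 and Map3k14) and 1 higher (Tradd), and the median change of the induced genes went from -0.26 to -0.50 (13 genes, without Rel). More of all measurements passed there too, 1398 of 23314 (547 higher and 851 lower), against 1137 of 24030 with all arrays. Control array 3 was singled out after its values were seen.

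The curcumin arrays came from 2 ranges of slide numbers, arrays 1 and 2 from the range that also holds the 4 control arrays and arrays 3 and 4 from another. Curcumin arrays 3 and 4 both lay above curcumin arrays 1 and 2 in 7 of 13 induced genes (53.8%) and in 8 of 18 signalling genes (44.4%), against 20.3% of all measurements. Among the induced genes the gap was widest in Nfkbiz, with means of 0.27 and 1.0, and in Tnfaip3, with 0.67 and 1.24. Within the shared range (4 control against 2 curcumin arrays) the median change of the induced genes was -0.43 and that of the signalling genes -0.24, against -0.26 and -0.14 with all arrays. There Tnfaip3 had -0.72 (SE 0.30, adjusted p = 0.382), Nfkbiz -0.44 (SE 0.23, adjusted p = 0.502) and Tnip1 -0.20 (SE 0.10, adjusted p = 0.488). The 3 called members kept their size there, Tnfaip2 at -1.37 (SE 0.29, adjusted p = 0.105), Nfkbia at -1.19 (SE 0.25, adjusted p = 0.103) and Tradd at 0.45 (SE 0.12, adjusted p = 0.155), but none passed. With the range as a block they had -1.37 (adjusted p = 0.072), -1.19 (adjusted p = 0.0812) and 0.45 (adjusted p = 0.103). The other range holds curcumin arrays only, so for these 3 genes the block could only repeat the changes of the shared range. Slide range and differences between single mice cannot be told apart within the curcumin group.

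**Figure D3:**
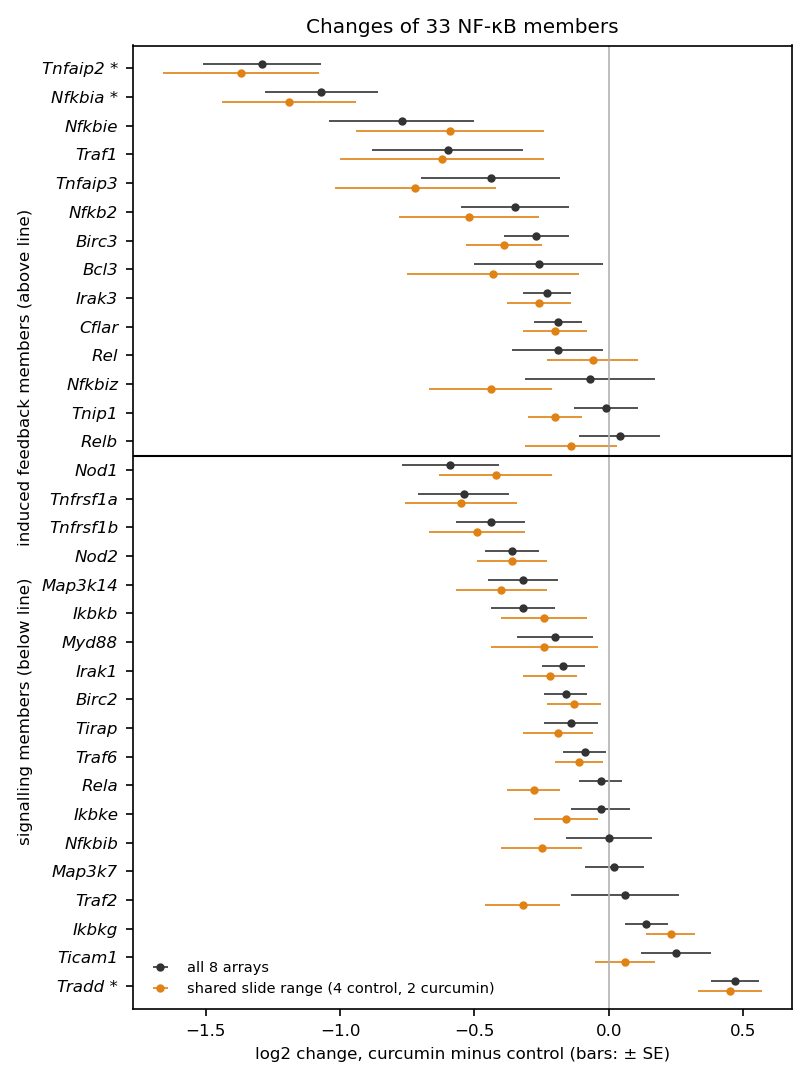
Log2 change, curcumin minus control (x axis, bars ± SE), of the 33 measured members (y axis, induced feedback genes above the line), with all 8 arrays in grey and within the shared slide range in orange. Stars mark the 3 members past the threshold with all arrays. Tnfaip2, Nfkbia and Tradd have much the same change in both, while Nfkbiz goes from -0.07 to -0.44 and Traf2 from 0.06 to -0.32. Map3k7 has no orange point.

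Among the receptors, Tnfrsf1a (TNF receptor 1, found on most cells) had log2 ratios from -0.72 to 0.07 in control mice and from -1.12 to -0.62 in curcumin mice, with a change of -0.54 (SE 0.17, adjusted p = 0.116). Tnfrsf1b (TNF receptor 2, mainly of immune and endothelial cells) had 0.31, 0.44, 0.16 and 0.78 in control mice and -0.15, 0.02, 0.16 and -0.09 in curcumin mice. Its groups touched without overlapping, and the change of -0.44 (SE 0.13, adjusted p = 0.107) did not pass; its 2 probes gave -0.84 and -0.04. Nod1 and Nod2 sense bacterial peptidoglycan inside cells, and human NOD2 is a risk gene for Crohn's disease. Nod2 had 0.25, 0.32, 0.19 and 0.57 in control mice and 0.05, -0.10, 0.05 and -0.09 in curcumin mice, without overlap, and its change was -0.36 (SE 0.10, adjusted p = 0.0747). Nod1 ran from 0.56 to 1.21 in control mice and from -0.05 to 0.68 in curcumin mice, with a change of -0.59 (SE 0.18, adjusted p = 0.101). All 4 receptors had intervals below 0, and none passed over all measurements. Tnfrsf1a passed without control array 2 (-0.66, adjusted p = 0.0494) and had -0.40 (adjusted p = 0.22) without control array 4.

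Tradd, the adaptor that binds the death domain of TNF receptor 1 and recruits the ubiquitin ligases, was the 1 member that rose. It had 0.23, 0.23, -0.01 and 0.29 in control mice and 0.71, 0.56, 0.72 and 0.63 in curcumin mice. The groups did not overlap, and the spread within each was small. Tradd was 1.39-fold higher with curcumin (log2 change 0.47, SE 0.09, adjusted p = 0.0175), from 0.18 ± 0.13 to 0.66 ± 0.08 (SD, n = 4). It was measured by 1 probe, and the call was lost without curcumin array 1 (0.45, adjusted p = 0.0559) or curcumin array 4 (0.48, adjusted p = 0.051). Of its partners in the TNF receptor complex, Traf2, a ubiquitin ligase adaptor, had a change of 0.06 (95% interval -0.40 to 0.51), and Birc2, which encodes cIAP1, had -0.16 (95% interval -0.33 to 0.01).

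None of the 5 measured kinases passed, and 2 had an unadjusted p under 0.05. Ikbkb encodes IKKβ, the catalytic IκB kinase of the canonical branch, and had log2 ratios from -0.12 to 0.41 in control mice and from -0.26 to -0.06 in curcumin mice (change -0.32, SE 0.12, adjusted p = 0.201). Map3k14 encodes NIK, the kinase of the non-canonical branch, and had a change of -0.32 (SE 0.13, adjusted p = 0.200). That change passed without control array 3 (-0.44, SE 0.09, adjusted p = 0.0279) and was -0.25 (adjusted p = 0.332) without control array 2. Ikbkg, the regulatory subunit NEMO, had 0.14 (95% interval -0.05 to 0.32). Ikbke, an IκB kinase relative of the interferon pathway, had -0.03 (95% interval -0.29 to 0.22). Map3k7, which encodes TAK1 and was without a value on curcumin array 2, had 0.02 (95% interval -0.23 to 0.27). The intervals of these last 3 kinases hold 0 and leave room for changes of up to 0.32 upwards.

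None of the 5 measured adaptors and kinases that follow Toll-like and interleukin 1 receptors passed in limma or had an unadjusted p under 0.05. Myd88, the shared adaptor of these receptors, ran from -0.13 to 0.52 in control mice and from -0.02 to 0.07 in curcumin mice (change -0.20, 95% interval -0.52 to 0.12). Irak1, the kinase next in line, had -0.17 (95% interval -0.35 to 0.01), and Traf6, the ubiquitin ligase it engages, -0.09 (95% interval -0.28 to 0.09). Tirap, which brings Myd88 to the membrane, had -0.14 (95% interval -0.36 to 0.08). Ticam1 encodes TRIF, the adaptor of the Myd88-independent branch, and had 0.25 (95% interval -0.03 to 0.54). Within the shared slide range its change was 0.06 (adjusted p = 0.904).

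Set side by side, 2 of 14 induced feedback genes fell (14.3%, against 2.63% of all measurements) and none rose. Of these genes 5 (35.7%) had an unadjusted p under 0.05 in limma, as had 18.4% of all measurements, and their changes ran from -1.29 to 0.04 with a median of -0.26. Of the 19 signalling parts none fell and 1 rose (5.26%, against 2.10% of all measurements), with 7 (36.8%) at an unadjusted p under 0.05, and their changes ran from -0.59 to 0.47 with a median of -0.14. The mean of the 18 signalling genes with a value on every array ran from 0.03 to 0.20 in control mice and from -0.09 to 0.05 in curcumin mice. That of the 13 induced genes ran from 0.29 to 1.03 and from 0.10 to 0.47. The mean of the induced genes thus stood above the reference on all 8 arrays, and the groups overlapped in both means. The difference between the 2 lists was not tested.

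The same fit was read for genes around the members. Of 46 further pathway genes tested, 2 fell and none rose (4.35% called, near the 4.73% of all measurements, median change -0.07). They were Il1r1, the signalling receptor of interleukin 1 (-0.87, SE 0.13, adjusted p = 0.00909), and Nlrc3, an inhibitor of TRAF6 signalling (-0.27, SE 0.06, adjusted p = 0.0472). Upstream, 4 of 17 ligands and receptors fell and none rose (23.5% lower, against 2.63% of all measurements, median -0.54). The cytokine Il1b fell by 2.31 on the log2 scale (SE 0.42, adjusted p = 0.0171), the bacterial lipoprotein receptor Tlr2 had -1.20 (SE 0.23, adjusted p = 0.0200), the TLR4 partner Ly96 -0.68 (SE 0.12, adjusted p = 0.0171) and the B cell factor Tnfsf13b -0.55 (SE 0.12, adjusted p = 0.0314).

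Downstream, 6 of 22 textbook NF-κB target genes fell and none rose (27.3% lower, against 2.63% of all measurements, median -0.91). The leukocyte adhesion molecules Vcam1 and Icam1 were among them, at -1.18 (SE 0.15, adjusted p = 0.00412) and -1.09 (SE 0.22, adjusted p = 0.0258). So were the chemokines Cxcl1, which attracts neutrophils (-1.69, SE 0.39, adjusted p = 0.0443), and Ccl5, which attracts T cells and monocytes (-1.61, SE 0.24, adjusted p = 0.00847), and the survival gene Bcl2a1b of the BCL2 family (-1.59, SE 0.27, adjusted p = 0.0131). These lists were chosen with earlier results of the same arrays known, so their direction is no independent evidence.

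Markers of immune cells and of epithelium moved with the diets beside the members, and their part in the members' changes was not tested. In bulk colon, fewer cells of a type and less RNA per cell cannot be told apart. Over all measurements 2.63% fell and 2.10% rose, the shares to set beside the counts that follow. Of 10 pan-leukocyte genes 6 fell, and the list mean ran from 0.76 to 1.33 on the control arrays and from -0.02 to 0.40 on the curcumin arrays. Of 14 macrophage and dendritic cell genes 7 fell (list means 1.06 to 1.56 and 0.18 to 0.59), and of 10 neutrophil genes 4 fell (0.81 to 1.44 and -0.44 to 0.25). S100a8 is among these neutrophil genes and also served to choose the direction of the ratio, so its fall is no separate result. Of 12 T cell genes 4 fell (0.24 to 0.73 and 0.00 to 0.22). None of 9 B cell genes passed in limma or had an unadjusted p under 0.05 (0.32 to 0.97 and 0.46 to 0.80). Of 18 colonocyte genes 4 rose (-0.28 to 0.06 and 0.40 to 0.67). On each array between 191 and 397 features share 1 value, and colonocyte genes such as Lgals4 and Krt8 stood at or near it on the curcumin arrays. The pattern was not limited to that diet, since both genes also had equal values on control arrays 1, 3 and 4 (0.33, 0.51 and 0.38). No probe of a member held the shared value on any array. The leukocyte, macrophage, neutrophil, T cell and colonocyte means did not overlap between the diets, nor did those of the NF-κB target genes (0.54 to 1.55 and 0.08 to 0.47) and of the ligands and upstream receptors (0.79 to 1.43 and 0.28 to 0.56). The mean of the induced NF-κB genes did overlap.

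**Figure D4:**
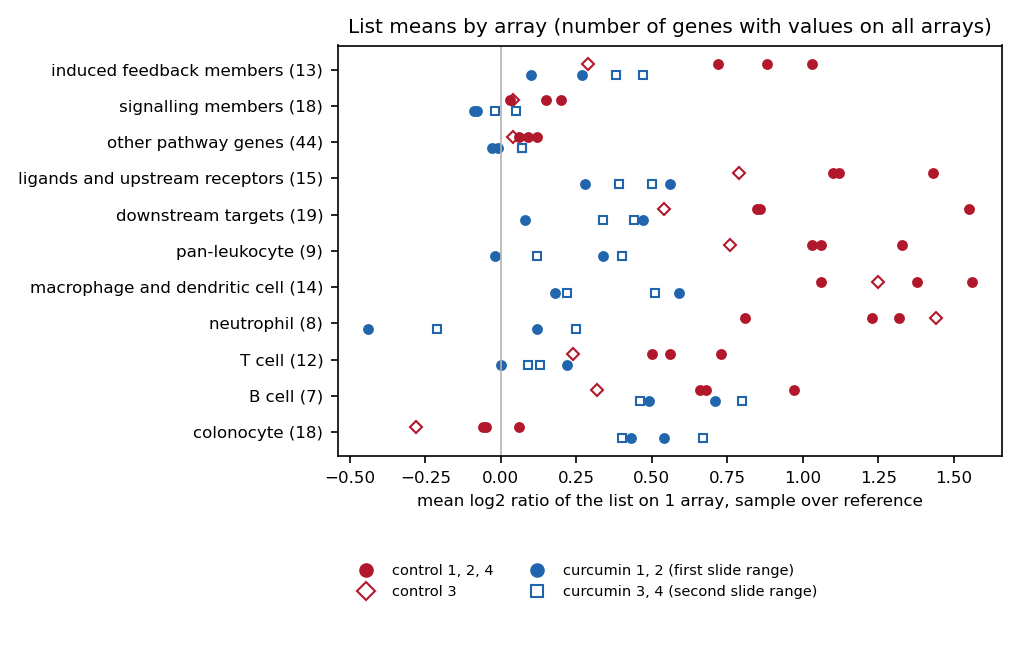
Mean log2 ratio of each gene list on single arrays (x axis) for the NF-κB lists, their neighbours and cell type marker lists (y axis, number of genes with values on all 8 arrays in brackets), control mice in red and curcumin mice in blue. Open diamonds mark control array 3 and open squares curcumin arrays 3 and 4. The signalling and other pathway lists stay between -0.09 and 0.20, while the macrophage list separates the diets, at 1.06 to 1.56 against 0.18 to 0.59.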

How the data were processed

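The deposited values are log2 ratios of 44290 features on 8 arrays, which the authors processed with limma, per the submitters' processing notes, with no version, background correction or filter given in the sources used here. The base of the logarithm is not stated and was taken as log2, the base limma writes. Features were named from the platform annotation, with 31906 of 32089 annotated features matched by gene identifier to GRCm38.p6 and 0 symbols changed; 32042 features had 1 symbol, 47 several and 12201 none. A feature was kept if each group had 3 or more values, and probes of 1 gene were then averaged on each array, which left 24030 measurements, 17220 of them named genes. Of the 33 members 12 were measured by several tested probes.

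Curcumin minus control was fitted by lmFit and eBayes of limma 3.58.1 under R 4.3.3 (no covariate, two-sided), with Benjamini-Hochberg adjustment over all measurements and a threshold of 0.05. The fit was tested on simulated data. Figures were drawn with matplotlib 3.10.9. Replicates were taken from the sample titles, and the series text calls them biological.

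The members, lists and tests were chosen with earlier results of these data known. All members could be named, with values on every array for those past the threshold or without overlap and for the feedback genes, and at most 5 genes of every other list, those past the threshold with the largest changes; S100a8 was named for the direction of the ratio, and Lgals4 and Krt8, which did not pass, for their shared value, chosen after their values were seen. Alternatives covered normalization, missing values, probes, shared values, model, slide range, replicate block and each array left out; averaging before the filter was added after the data were seen.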

Additional observations from a re-analysis of the deposited data

Results flagged for a closer look

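Among 63 sets of 4 arrays (1 member in 1 diet), 3 had an array that stood apart by more than Dixon's critical share of the whole range; chance flags about 1 in 20 such sets. Nfkb2 had -0.04 on control array 3, where the next control value was 0.79. Traf6 had -0.18 on control array 2, where the next was -0.06. Birc2 had 0.29 on curcumin array 2, where the next was 0.17.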

How the results depend on the processing

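Tnfaip2 and Nfkbia kept a change below 0 and Tradd one above 0 under all 22 alternatives, with changes from -1.5 to -1.11, from -1.23 to -0.93 and from 0.41 to 0.53; they stayed past the threshold under 19, 17 and 17 of them, with adjusted p from 0.0041 to 0.105, from 0.0133 to 0.103 and from 0.0114 to 0.155. The count of changed measurements (1137) went to 1800 with array weights, 743 with the replicate block, 330 with the slide range as a block, 175 within the shared slide range, and 512 to 1398 with 1 array left out (701 without control array 1, 534 without control array 4, 564 without curcumin array 1 and 512 without curcumin array 4). The count of changed members (3) went to 7 with array weights, which added Nod1, Nod2, Tnfrsf1a and Tnfrsf1b, to 0 in limma with the slide range as a block (12 at an unadjusted p under 0.05) and within the shared range (11), and to between 0 and 7 with 1 array left out; the 7 came without control array 3, 1 without curcumin array 1, and the 0 without curcumin array 4 (8 at an unadjusted p under 0.05). The count of called genes in the other lists (44) went to 28 with the replicate block, 10 with the range as a block, 5 within the shared range, and 19 to 46 with 1 array left out. The median of the signalling parts (-0.14) was -0.22 with the range as a block and -0.24 within the shared range, and -0.18 to -0.10 with 1 array left out; that of the induced genes was -0.50 to -0.19. The shared range holds 2 curcumin arrays fewer, and the changes with the range as a block rest on the same arrays. Otherwise the cause of these moves was not tested. Same-numbered arrays of the 2 diets had correlations of -0.02 to 0.195 in their deviations from the group means, and 1 of 4 control arrays correlated best with its own number, so the numbers were not taken as pairs; under the replicate block Tradd had 0.47 (adjusted p = 0.0598). With every probe on its own, 3 of the 52 tested probes of members were called, beside 1478 of all 33957 features. No scanner signals were used, so signal over background is unknown.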

Other observations

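Beside the immune and epithelial lists, 4 of 9 fibroblast genes fell with curcumin and none rose (median change -0.70), and the list mean ran from -0.37 to 0.19 on the control arrays and from -0.93 to -0.70 on the curcumin arrays. Of 9 endothelial genes 3 fell and none rose (median -0.23). Over all measurements 2.63% fell. Control array 3, on which most NF-κB feedback genes were lowest among control mice, had the highest control mean of the fibroblast list (0.19) and of the endothelial list (-0.23). None of the liver or kidney genes used for the direction of the ratio passed in limma, with 1 and 0 at an unadjusted p under 0.05.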
